A study of Mus musculus with 15 samples.

Results

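Neurofilaments and their relatives are the intermediate filaments of sensory neurons, and 6 of their genes were examined here: Nefh, Nefm, Nefl, Ina, Prph and Vim. They were chosen by gene symbol, are 6 of the 19938 genes tested and were read by 7 of the 35556 probe sets on the arrays. Each gene had 1 probe set except Ina, which had 2. The samples were 15 Affymetrix microarrays of large sensory neurons, with 5 groups of 3 biological replicates each. The neurons came from the lumbar dorsal root ganglia 2 to 5 of the injected side, had a diameter above 26.9 µm, and were collected by a fluorescence sort. All mice were C57BL/6 and carried green fluorescent protein (GFP) under the promoter of the calcitonin gene-related peptide (CGRP), so that GFP marks the neurons in which this promoter is active. All of them also received the tracer wheat germ agglutinin-AF647, in the gastrocnemius muscle or the saphenous nerve, 5 days before death.

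The skin neurons were CGRP-positive and came from mice given saline in the paw (saline paw) or complete Freund's adjuvant in the paw (CFA paw), a preparation of killed mycobacteria in oil that inflames the tissue. The muscle neurons were CGRP-negative and came from mice given saline (saline muscle), acid (acid muscle) or CFA (CFA muscle) in the muscle. Saline-injected mice served as controls. The paw and the muscle groups differ at once in target tissue, in CGRP status and in the sites of injection and of the tracer, which cannot be told apart. Age, and whether 1 sample pools several animals, are not given in the sources used here.

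Neurofilaments fill the axon of large neurons and set its calibre, which in turn governs how fast an axon conducts. They are built from light (Nefl), medium (Nefm) and heavy (Nefh) chains, and in neurons also from alpha-internexin (Ina) or peripherin (Prph), all of which copolymerise with the light chain. In the dorsal root ganglion the heavy chain is widely used to mark large myelinated neurons, and peripherin to mark small ones. Vimentin (Vim) is the filament of mesenchymal cells, glia and immature neurons.

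Promoter sequences are shown for Ina, Prph and Vim (mouse build GRCm38.p6). The reference set of promoter windows used here holds no window for Nefh, Nefm and Nefl. The 3 sequences are shown because, in the values as deposited, Prph and Vim followed each other closely over the 15 arrays (Pearson's r 0.92). An r above 0.9 was not particular to this pair, with 766 such genes for Prph and 95 for Vim. Prph and Vim also followed the standard deviation of each array over all genes (r 0.96 and 0.86). Ina differed from both in direction between skin and muscle neurons. This contrast belongs to the deposited scale: after quantile normalization, which gives all arrays the same distribution, all 3 were lower in skin neurons and r was 0.75 for Prph with Vim, 0.71 for Ina with Prph and 0.71 for Ina with Vim. Each line holds the last 60 bases before the annotated start, on the plus strand, with a TATAAA motif in capitals.
Ina: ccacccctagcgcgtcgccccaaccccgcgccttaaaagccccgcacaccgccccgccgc
Prph: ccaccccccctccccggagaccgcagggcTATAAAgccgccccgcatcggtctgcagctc
Vim: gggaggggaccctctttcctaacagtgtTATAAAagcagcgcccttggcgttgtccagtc
They lie at chr19:47014621-47014680 (Ina), chr15:99055114-99055173 (Prph) and chr2:13574251-13574310 (Vim). The motif TATAAA, the core of a TATA box, began 31 bases before the start of Prph and 32 bases before that of Vim, and Ina had 0 matches in its whole window of 300 bases. Of the 32851 promoter windows of 300 bases in the reference set, searched on both strands, 13.6% held TATAAA. The motif GGGCGG, the core of a GC box, had 2 matches for Ina, 1 for Prph and 0 for Vim, and 35.7% of windows held it. The motif CCAAT had 2 matches for Vim and 0 for the other two, against 37.4% of windows. GC content of the window was 71.7% for Ina, 64.7% for Prph and 59.3% for Vim, and the median over all windows was 52.7%. These matches describe the letters of the windows only.

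The arrays differed in the width of their signal range, and the width differed between the paw and the muscle arrays. The standard deviation (SD) of log2 expression over all genes was 1.28 to 1.55 on the 9 muscle arrays. On 5 of the 6 paw arrays it was 1.66 to 1.80. Saline paw replicate 1 stood apart from its group, with an SD of 1.42. The 99th percentile of the genes was 8.31 to 8.57 on the same 5 paw arrays, 7.46 on saline paw replicate 1 and 6.89 to 7.84 on the muscle arrays. All 6 members lay in the upper part of that range on every array. Saline paw replicate 1 enters the group means of the saline, the CFA paw against saline paw and the mean paw comparisons. These are also given without it. It also enters the difference of the CFA effects between muscle and skin. Through the spread, which is pooled over the groups, it enters the p-values of every comparison. Markers of large myelinated neurons were above the level of olfactory and vomeronasal receptor genes (2.44, the level under which 95% of those 1194 genes lie, called the dim limit below) in every group, 17 of 17 measured.

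The heavy chain gene Nefh was high in all groups and higher in skin neurons. Its log2 expression was 10.51, 11.24 and 11.03 in the 3 saline paw samples and 11.04, 10.80 and 10.66 in the 3 CFA paw samples. It was 9.76, 8.97 and 9.0 in saline muscle, 9.52, 8.83 and 9.60 in acid muscle and 8.83, 9.53 and 9.25 in CFA muscle. All 6 paw arrays lay above all 9 muscle arrays, as 2.44% of all genes did. By group mean (SD, n = 3 each) the order was saline paw (10.93 ± 0.38), CFA paw (10.83 ± 0.19), acid muscle (9.32 ± 0.42), saline muscle (9.24 ± 0.45) and CFA muscle (9.21 ± 0.35), and neighbours within the skin groups and within the muscle groups differed by less than these SDs.

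The medium chain gene Nefm varied more between replicates than the other members. It read 8.32, 9.68 and 9.54 in saline paw and 9.68, 9.29 and 8.87 in CFA paw. The muscle samples read 8.94, 8.03 and 8.02 after saline, 8.39, 7.79 and 9.83 after acid and 7.69, 8.46 and 8.23 after CFA. The paw and muscle arrays overlapped: the highest value of all was acid muscle replicate 3, and saline paw replicate 1 lay among the muscle arrays. The pooled SD within groups was 0.67 for Nefm, larger than for 99.5% of the genes, against 0.49 for Nefl, 0.44 for Vim, 0.37 for Nefh, 0.32 for Prph, 0.28 for Ina and a median of 0.23 over all genes. The order of group means was CFA paw (9.28 ± 0.40), saline paw (9.18 ± 0.75), acid muscle (8.67 ± 1.05), saline muscle (8.33 ± 0.53) and CFA muscle (8.13 ± 0.40), each neighbour within the spread of the next.

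The light chain gene Nefl, without which the other chains do not form normal filaments, was higher in skin neurons as well. It read 11.24, 12.16 and 11.95 in saline paw and 12.03, 11.71 and 11.72 in CFA paw. It read 10.72, 9.97 and 9.74 in saline muscle, 10.45, 9.65 and 11.16 in acid muscle and 9.87, 10.51 and 10.25 in CFA muscle. Again all 6 paw arrays lay above all 9 muscle arrays, although acid muscle replicate 3 came close to saline paw replicate 1. The order was CFA paw (11.82 ± 0.18), saline paw (11.78 ± 0.48), acid muscle (10.42 ± 0.76), CFA muscle (10.21 ± 0.32) and saline muscle (10.14 ± 0.51), with a gap beyond these SDs only between saline paw and acid muscle. Nefl and Nefm are neighbours in the genome, with 0 protein-coding genes between them in the RefSeq table. Acid muscle replicate 3 was the highest muscle array for both genes.

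Alpha-internexin, a filament protein known best from central and developing neurons, was the member with lower mean levels in skin than in muscle neurons. Ina read 5.27, 5.77 and 5.64 in saline paw and 5.94, 5.58 and 5.84 in CFA paw. It read 6.36, 6.05 and 5.62 in saline muscle, 5.97, 5.79 and 6.37 in acid muscle and 6.11, 6.31 and 5.84 in CFA muscle. The paw samples lay low, but the groups overlapped. From the top, the order was CFA muscle (6.09 ± 0.24), acid muscle (6.04 ± 0.29), saline muscle (6.01 ± 0.37), CFA paw (5.79 ± 0.19) and saline paw (5.56 ± 0.26), with no neighbours further apart than their SDs. The second Ina probe set, annotated to 1 complementary DNA clone, differed between mean paw and mean muscle by −0.07 (SE 0.290), and its sign in the CFA groups (0.16 for CFA paw minus CFA muscle) was opposite to that of the first.

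Peripherin, the filament protein of small sensory neurons and of regrowing axons, varied little between the muscle samples, acid muscle replicate 2 being the lowest. Prph read 8.37, 8.27 and 8.04 in saline muscle, 8.31, 7.75 and 8.19 in acid muscle and 8.27, 8.26 and 8.12 in CFA muscle. It read 9.09, 8.99 and 8.92 in CFA paw and 8.07, 9.16 and 9.11 in saline paw. Of the 6 paw arrays 5 lay above every muscle array, and saline paw replicate 1 lay inside the muscle range. The order was CFA paw (9.0 ± 0.087), saline paw (8.78 ± 0.61), saline muscle (8.23 ± 0.17), CFA muscle (8.22 ± 0.082) and acid muscle (8.08 ± 0.30), and each neighbour lay within the larger SD of the pair.

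Vimentin showed the same arrangement of arrays as peripherin. Vim read 7.92, 9.02 and 8.90 in saline paw and 9.07, 9.04 and 9.01 in CFA paw. It read 8.55, 8.28 and 8.05 in saline muscle, 8.66, 7.30 and 8.37 in acid muscle and 8.54, 8.40 and 8.14 in CFA muscle. Saline paw replicate 1 and acid muscle replicate 2 were its lowest arrays, and the other 5 paw arrays were its highest. The order was CFA paw (9.04 ± 0.031), saline paw (8.62 ± 0.60), CFA muscle (8.36 ± 0.20), saline muscle (8.29 ± 0.25) and acid muscle (8.11 ± 0.71), again with each neighbour within the larger SD of the pair.

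**Figure D1:**
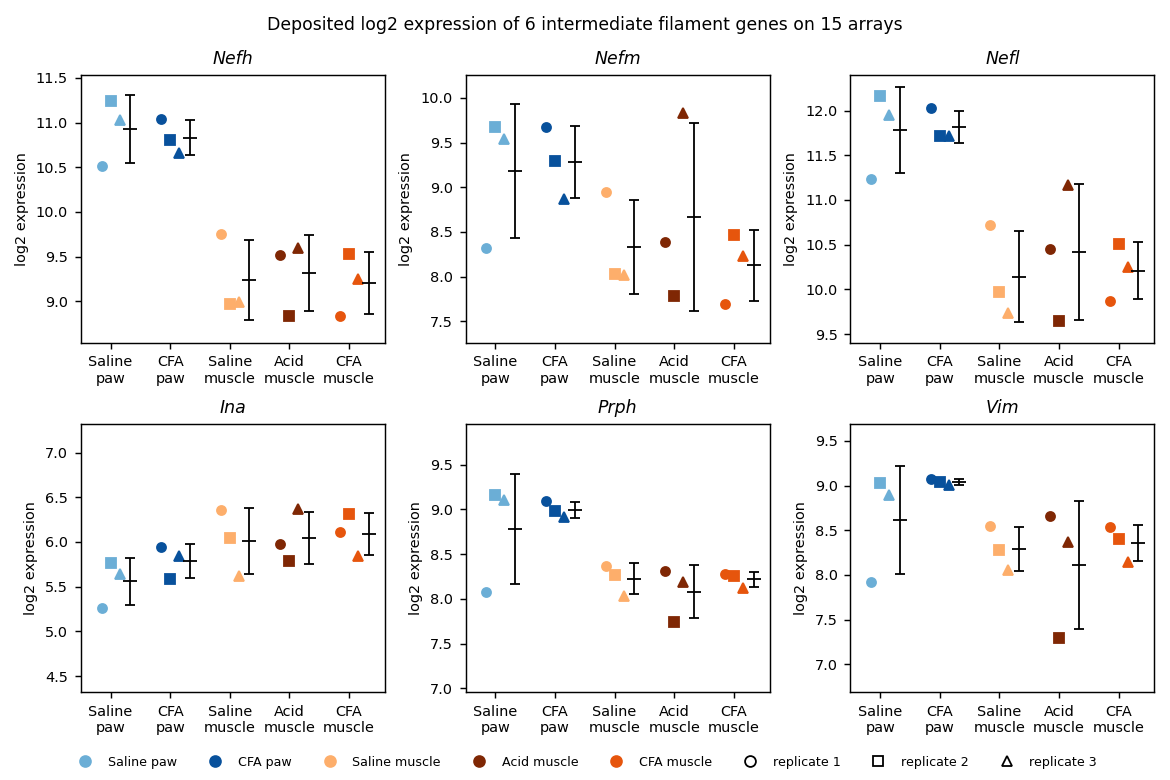
Deposited log2 expression (y axis) of each gene on the 15 arrays by group (x axis), with points for single arrays and bars for the group mean ± SD (n = 3). All paw arrays of Nefh and Nefl lie above all muscle arrays, and saline paw replicate 1 (light blue circle) is the lowest paw array for every gene.

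The comparison of the saline groups sets skin neurons against muscle neurons without inflammation. Nefh was 3.22-fold higher in saline paw than in saline muscle and Nefl 3.11-fold higher, and in both genes the 3 saline paw samples lay above the 3 saline muscle samples. On the log2 scale the differences were 1.69 for Nefh (SE 0.270, limma adjusted p = 0.0071) and 1.64 for Nefl (SE 0.349, adjusted p = 0.0296). Nefm differed by 0.85 (adjusted p = 0.382), Prph by 0.56 (adjusted p = 0.25), Vim by 0.32 (adjusted p = 0.638) and Ina by −0.45 (adjusted p = 0.303). Thus 2 of the 6 members passed an adjusted p of 0.05, both higher, where 2.04% of all genes passed and 1.87% were higher. The samples of the groups did not overlap for the same 2 members, both higher, which held for 8.11% of all genes in this direction and for 15.2% in either. The median difference over the 6 members was 0.70, and over all genes it was −0.02. Without saline paw replicate 1, Prph also passed (0.91, adjusted p = 0.00214) and the differences of Nefh and Nefl were 1.89 and 1.91, at a background of 19.2% of genes. Without saline paw replicate 2 (background 0.291%) or 3 (0.256%), 0 members passed, and without saline muscle replicate 2 (0.552%) or 3 (0.557%) only Nefh did. With only the 6 arrays of this comparison in the fit, 0 members and 0% of genes passed (Nefh adjusted p = 0.184).

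The calls of the saline comparison also depended on how the arrays were scaled. Nefh and Nefl did not pass after quantile normalization (0.44, limma adjusted p = 0.351, and 0.14, adjusted p = 0.737), with cyclic loess scaling (0.58, adjusted p = 0.259, and 0.38, adjusted p = 0.406) or with the arrays set to 1 median and SD (0.74, adjusted p = 0.12, and 0.57, adjusted p = 0.229). Under each of these Ina, read by the brighter of its 2 probe sets, was lower in skin neurons by 0.80 to 0.91. Its limma adjusted p-values were 0.0123, 0.0125 and 0.0222, and the shares of all genes that passed were 1.73%, 2.14% and 1.41%. When array SD was a covariate, Nefh (1.11, adjusted p = 0.0112) and Ina (−0.83, adjusted p = 0.0391) passed and Nefl did not (adjusted p = 0.0734), at 1.86% of genes. Nefl was also lost with array medians centred (adjusted p = 0.0559, background 0.998%), with an intensity trend in the prior (adjusted p = 0.0661, 1.59%) and with the replicate number as a block (adjusted p = 0.0507, 1.58%).

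After CFA in both tissues, the heavy and light chains were again higher in skin neurons, by 3.09-fold for Nefh and 3.06-fold for Nefl. The log2 differences of CFA paw minus CFA muscle were 1.63 for Nefh (SE 0.270, limma adjusted p = 0.00325) and 1.61 for Nefl (SE 0.349, adjusted p = 0.0136). Nefm differed by 1.15 (adjusted p = 0.174), Prph by 0.78 (adjusted p = 0.0685), Vim by 0.68 (adjusted p = 0.239) and Ina by −0.30 (adjusted p = 0.451). So 2 of 6 members passed, both higher, where 6.41% of all genes passed and 5.75% were higher. All members except Ina had CFA paw samples that lay wholly above the CFA muscle samples, which held for 18.9% of all genes in this direction and for 36% in either. Without CFA muscle replicate 1 (background 2.64%) or CFA paw replicate 1 (3%) only Nefh passed, and with only these 6 arrays in the fit 5 members passed, all but Ina, at a background of 16.1% of genes. Leaving out saline paw replicate 1, which enters here only through the pooled spread, raised the background to 13% of genes. These calls, and the direction of Nefl, depended on the scale. Neither chain passed after quantile normalization (Nefh 0.44, limma adjusted p = 0.278, and Nefl 0.17, adjusted p = 0.639), with cyclic loess scaling (0.080, adjusted p = 0.907, and −0.16, adjusted p = 0.762) or with equal median and SD (0.52, adjusted p = 0.201, and 0.33, adjusted p = 0.378). By its brighter probe set, Ina passed as lower in skin neurons under these 3 (adjusted p = 0.00636, 0.00863 and 0.024), at backgrounds of 3.49%, 4.98% and 4.24% of genes. When array SD was a covariate, only Nefh passed (0.94, adjusted p = 0.0363), at 2.23%.

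Over all 15 arrays, the mean of the paw groups was compared with the mean of the muscle groups. Nefh was 3.09-fold higher in skin neurons, Nefl 2.92-fold and Prph 1.64-fold. The log2 differences were 1.63 (SE 0.174, limma adjusted p = 4.05e-05), 1.54 (SE 0.225, adjusted p = 0.000394) and 0.71 (SE 0.154, adjusted p = 0.00535). Nefm (0.85, SE 0.303, adjusted p = 0.0611), Vim (0.57, SE 0.205, adjusted p = 0.0624) and Ina (−0.37, SE 0.137, adjusted p = 0.0692) did not pass. That makes 3 of 6 members higher, where 19.5% of all genes passed and 13.9% were higher. Counted with its sign, the Nefh difference lay above that of 99.2% of genes and the Nefl difference above that of 99.1%. This ranking takes in 5561 dim genes and was not matched for brightness, while most paw arrays had a wider signal range. Without saline paw replicate 1, Nefm (1.07, adjusted p = 0.00905) and Vim (0.75, adjusted p = 0.00498) passed as well, at a background of 39.8% of genes. In bulk samples, fewer cells of a type and less RNA per cell cannot be told apart.

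In the mean comparison, too, the size of the heavy and light chain differences depended on how the arrays were brought to a common scale. After quantile normalization the mean paw minus mean muscle difference was 0.49 for Nefh (limma adjusted p = 0.0241) and 0.19 for Nefl (adjusted p = 0.228), at a background of 11.6% of genes. With the arrays set to 1 median and SD it was 0.60 for Nefh (adjusted p = 0.00952) and 0.37 for Nefl (adjusted p = 0.0662), at a background of 14.7%. With the array SD as a covariate it was 0.99 for Nefh (adjusted p = 0.00388) and 0.65 for Nefl (adjusted p = 0.0653), at 3.8%. Under cyclic loess it was 0.28 for Nefh (adjusted p = 0.239) and 0.02 for Nefl (adjusted p = 0.94), at 15.1%. Nefh thus kept its sign under these 4 scalings and passed under 3, while Nefl kept its sign and passed under 0.

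Peripherin and vimentin changed sign with the scale. After quantile normalization both were lower in skin neurons (Prph −0.37, adjusted p = 0.0299, and Vim −0.52, adjusted p = 0.0164, both limma). Under cyclic loess Vim was lower (−0.49, adjusted p = 0.0182) and Prph was at −0.35 (adjusted p = 0.0532). Nefm lay between −0.38 and 0.03 under these 4 scalings and passed under 0. Ina was lower in skin neurons under all 4, by 0.73 to 0.90 on the log2 scale, with adjusted p-values of 7.66e-05 (quantile), 9.69e-05 (cyclic loess), 0.000291 (equal SD) and 0.0111 (SD as a covariate). These Ina calls rest on the brighter of its 2 probe sets. The second is given on the deposited scale only, where mean paw minus mean muscle was −0.07 (SE 0.290). With the mean of its probe sets in place of the brighter one, Ina differed by −0.22 in the deposited values (adjusted p = 0.418).

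**Figure D2:**
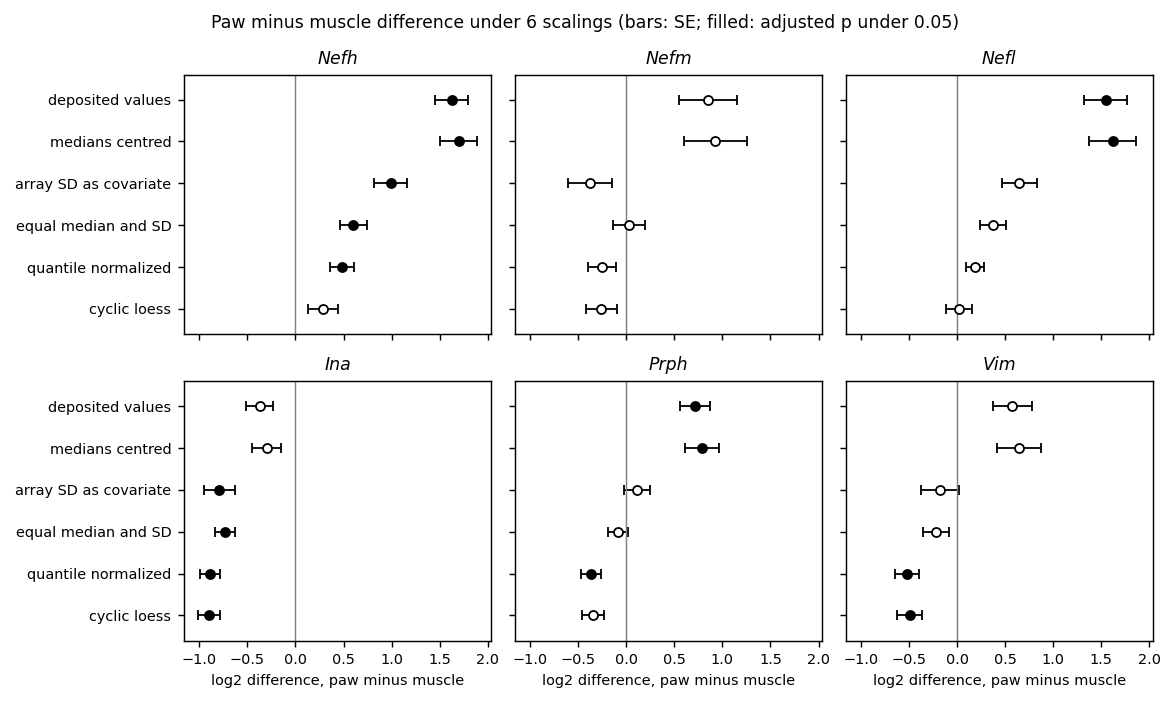
Difference of mean paw minus mean muscle (x axis, log2) for each gene under the deposited scale and 5 others (y axis), with bars for the SE and filled points for a limma adjusted p under 0.05. Nefh stays to the right of 0, Ina (brighter probe set) to the left, and Nefm, Prph and Vim cross it.

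The ranks of the genes within each array do not depend on its scale. Nefl had 3 brighter genes on every paw array and 3 to 8 on the muscle arrays. Nefh had 10 to 17 brighter genes on the paw arrays and 16 to 47 on the muscle arrays. The ranks of both chains overlapped between skin and muscle neurons. Over all arrays Nefh lay at percentiles 99.76 to 99.95 and Nefl at 99.96 to 99.98. A rank so near the top has little room to rise, so this overlap does not show equal levels. Prph had 112 to 122 brighter genes on the paw arrays and 59 to 138 on the muscle arrays, Vim 106 to 145 and 43 to 122, and Nefm 69 to 118 and 36 to 115. Ina, read by its brighter probe set, was the member whose ranks did not overlap, with 1931 to 2594 brighter genes on the paw arrays and 742 to 1302 on the muscle arrays. Its percentile was 87.0 to 90.3 on the paw arrays and 93.5 to 96.3 on the muscle arrays, a difference of −6.38 percentile points (limma on ranks, adjusted p = 0.00295, where 7.09% of genes passed). By this measure 1.33% of all genes were lower without overlap, and 3.6% did not overlap in either direction. The deposited values of the second Ina probe set overlapped, at 4.71 to 5.38 on the paw arrays and 4.10 to 6.51 on the muscle arrays. Its ranks were not computed. Ranks serve here to compare arrays for 1 gene, since probe signals of different genes have no common scale.

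**Figure D3:**
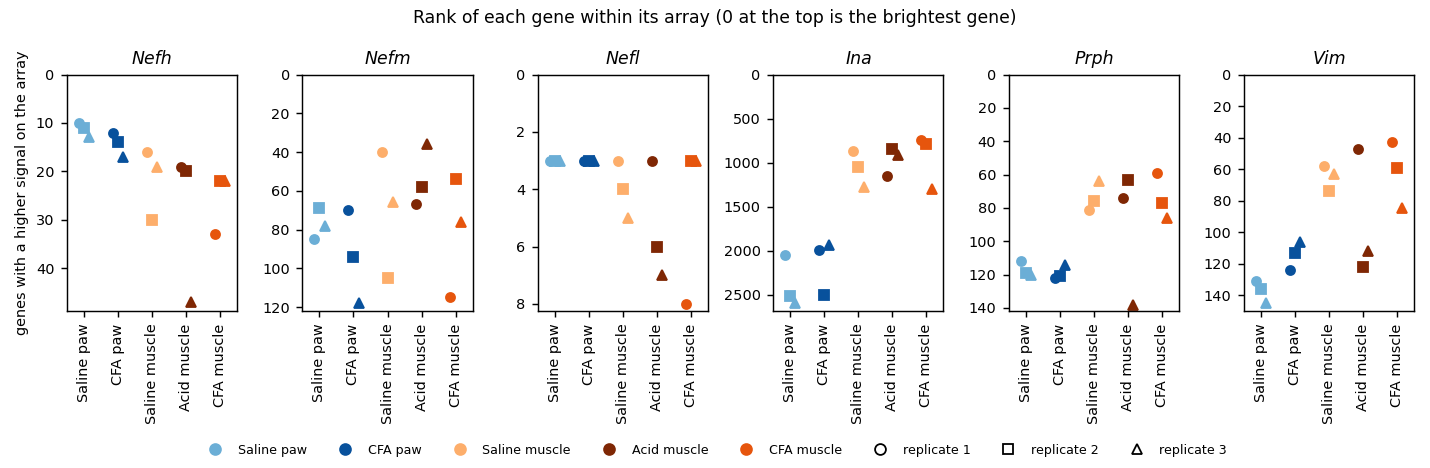
Number of genes with a higher signal on the same array (y axis, reversed, so that brighter is up) for each member by group (x axis), 1 point per array. Ina (brighter probe set) has 1931 to 2594 brighter genes on the paw arrays and 742 to 1302 on the muscle arrays, and the other members overlap between paw and muscle.

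The members' levels followed the width of the signal range also within the muscle neurons. Over the 9 muscle arrays, Pearson's r with the SD of the array was 0.93 for Nefl, 0.84 for Nefh, 0.84 for Nefm, 0.77 for Ina, 0.72 for Prph and 0.69 for Vim. These points share arrays, and a bright gene is itself part of the upper range, so r is given as a description. Saline paw replicate 1 had an SD inside the muscle range, 1.42, and there Nefh (10.51) and Nefl (11.24) were above every muscle array. Prph (8.07), Vim (7.92) and Nefm (8.32) were inside their muscle ranges on that array, and Ina (5.27) was below its muscle range.

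**Figure D4:**
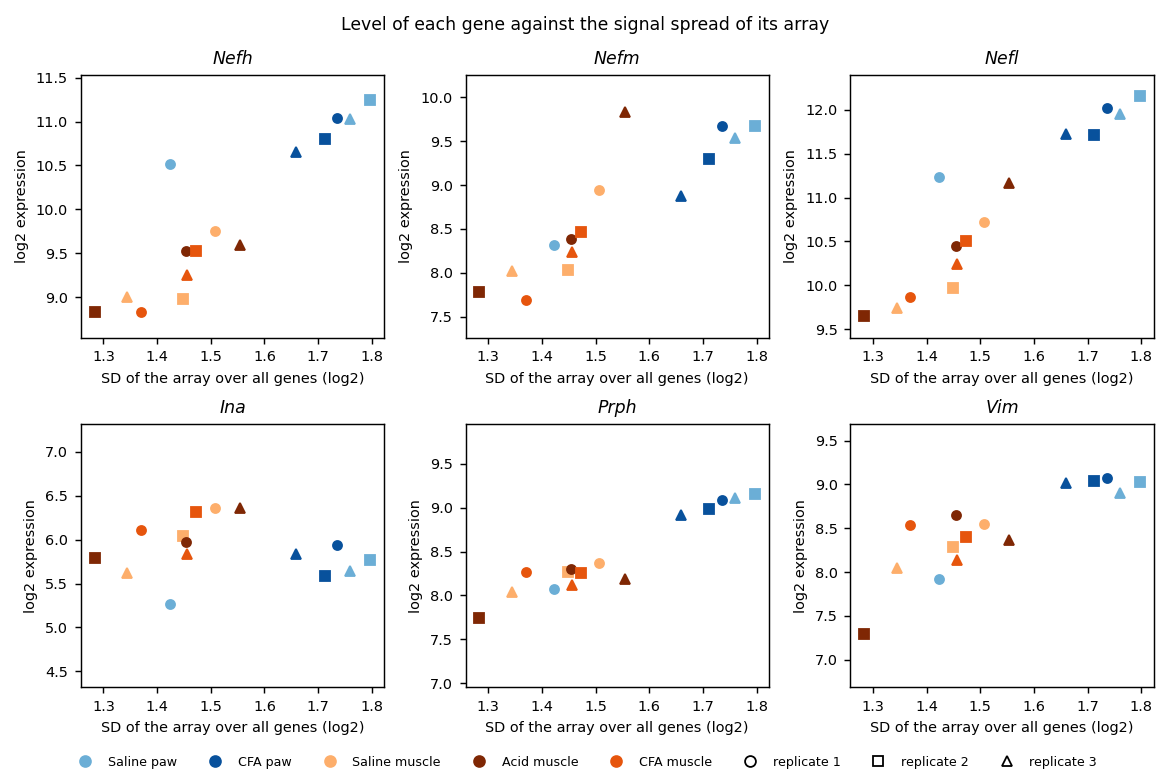
Log2 expression of each gene (y axis) against the SD of its array over all genes (x axis, log2), 1 point per array. Nefh and Nefl of saline paw replicate 1 (SD 1.42) lie above muscle arrays of similar SD, its Ina lies below them, and its Nefm, Prph and Vim lie among them.

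The levels of several members were correlated within the 9 muscle arrays. Pearson's r was 0.94 for Nefm with Nefl, 0.91 for Nefh with Nefl and 0.97 for Prph with Vim, and 0.34 for Nefm with Prph. After quantile normalization r over all 15 arrays was 0.74 for Nefh with Nefl, 0.75 for Prph with Vim and −0.11 for Nefm with Nefl. Among all genes tested, the 3 with the highest r to Nefl over the 15 deposited arrays were Stmn2 (0.986), which encodes a microtubule regulator of growing axons, Map7d2 (0.984) and Rtn3 (0.983). Those of Nefh were Nefl (0.976), Clu (0.976) and Map7d2 (0.973), and those of Nefm were Cd164 (0.966), the microtubule protein gene Map1a (0.957) and Enah (0.956). Prph was most like Anxa2 (0.984), the small heat shock protein gene Hspb8 (0.980) and Serinc3 (0.978), and Vim most like Eif2a (0.977), Pink1 (0.963) and the transcription factor gene Jun (0.962). Ina was most like Ly86 (0.878), Cdh19 (0.826) and Rnf7 (0.817). An r above 0.9 was common for some members, with 766 genes for Prph, 623 for Nefl and 561 for Nefh, against 95 for Vim, 70 for Nefm and 0 for Ina. After quantile normalization r fell to 0.743 for Nefl with Stmn2 and to −0.481 for Prph with Hspb8, and was 0.898 for Ina with Ly86.

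No member passed the test after any treatment. In skin neurons, CFA paw minus saline paw ran from −0.10 (Nefh) to 0.43 (Vim, 95% interval −0.25 to 1.10), with Nefm at 0.10, Nefl at 0.04, Ina at 0.23 and Prph at 0.21. Without saline paw replicate 1 these values were −0.30 for Nefh, 0.08 for Vim, −0.33 for Nefm, −0.23 for Nefl, 0.08 for Ina and −0.14 for Prph. In limma 0 of 6 members and 0% of genes had an adjusted p under 0.05. At an unadjusted p under 0.05 there were 0 members and 241 genes (1.21%). The CFA paw and saline paw samples overlapped for every member, and did not overlap for 4.71% of all genes.

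In muscle neurons, CFA muscle minus saline muscle was −0.04 for Nefh, −0.20 for Nefm, 0.06 for Nefl, 0.08 for Ina, −0.0087 for Prph and 0.07 for Vim. Acid muscle minus saline muscle was 0.07 for Nefh, 0.34 for Nefm, 0.28 for Nefl, 0.03 for Ina, −0.15 for Prph and −0.19 for Vim. Each of these differences was smaller than its SE, and the samples overlapped for every member, while 7.73% (CFA) and 6.92% (acid) of all genes did not overlap. In limma 0% of genes passed in either comparison. An unadjusted p under 0.05 was reached by 518 genes (2.60%, CFA) and 568 genes (2.85%, acid), with 0 members among them. For CFA muscle against acid muscle the 95% intervals of the 6 members lay within −1.54 to 0.93. There 0% of genes passed, with 626 genes (3.14%) and 0 members at an unadjusted p under 0.05. The CFA effect in muscle minus the CFA effect in skin was tested as an interaction. Its 95% intervals lay within −1.73 to 1.12 for the 6 members. Here too 0% of genes passed, with 325 genes (1.63%) and 0 members at an unadjusted p under 0.05.

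**Figure D5:**
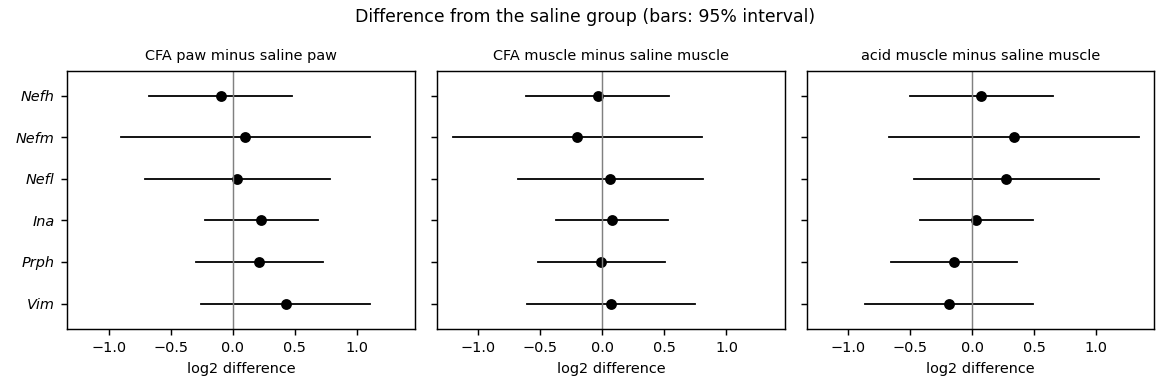
Difference of each treated group from its saline group (x axis, log2) for each gene (y axis), with the 95% interval from limma. Every interval includes 0, and the widest belong to Nefm.

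Partners of neurofilaments were taken from 4 lists and described over the same comparison of mean paw with mean muscle, where 13.9% of all genes were higher and 5.65% lower. Of 13 measured genes on the list of neurofilament kinases and phosphatases, 9 were higher in skin neurons and 0 lower (median 0.89, against −0.05 over all genes). They included the phosphatase scaffold gene Ppp2r1a (1.93, SE 0.191), the kinase genes Camk2b (1.04, SE 0.106) and Gsk3b (1.56, SE 0.179), and the stress kinase gene Mapk10 (1.69, SE 0.219). Of 12 motors and microtubule cross-linkers, 9 were higher and 0 lower (median 0.83), among them Mapt, which encodes tau (1.34, SE 0.152), and the microtubule-associated protein genes Map1b (1.62, SE 0.228) and Map2 (1.17, SE 0.244). Of 12 plakins, chaperones and turnover genes, 4 were higher and 0 lower (median 0.31). These were the small heat shock protein genes Hspb1 (1.49, SE 0.175) and Hspb8 (0.98, SE 0.207), the ubiquitin ligase gene Trim2, which acts on the light chain (0.85, SE 0.185), and the linker gene Dst (0.82, SE 0.204). After quantile normalization the counts were 6 higher for the kinases and phosphatases, 2 for the motors and cross-linkers and 1 for the chaperones, with 0 lower in each, at a background of 6.65% higher and 4.97% lower. On that scale the median was 0.31 for the kinases and phosphatases, −0.02 for the motors and cross-linkers, and −0.17 for the plakins, chaperones and turnover genes, of which 4 of 12 were above 0. In the fit that left out saline paw replicate 1, where 22% of all genes were higher and 17.8% lower, the counts were 11 higher for the kinases and phosphatases and 11 for the motors and cross-linkers, with 0 lower in both. The plakins, chaperones and turnover genes then had 7 higher and 3 lower.

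In the deposited values, other intermediate filament genes passed in both directions, with more lower than higher in skin neurons. Of 17 measured, 2 were higher in skin neurons and 4 lower, against 13.9% and 5.65% of all genes, and 4 of the 17 differences were above 0 (median −0.21). Sync, which encodes the filament partner syncoilin, was higher (1.63, SE 0.202), as was Iffo1 (0.50, SE 0.111). The nestin gene Nes (−0.65, SE 0.123) and the keratin genes Krt19 (−0.57, SE 0.175), Krt20 and Krt7 were lower. The level of Nes lay under the dim limit of 2.44 in 4 of the 5 groups, and that of Krt20 in both paw groups. After quantile normalization 1 was higher and 1 lower, against 6.65% and 4.97% of all genes. When saline paw replicate 1 was left out, 2 were higher and 7 lower, against 22% and 17.8% of all genes.

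Neuron type markers were set beside the members, since the heavy chain marks large myelinated neurons and peripherin small ones. Of 17 myelinated neuron markers 8 were higher in skin neurons and 0 lower (median 0.60), where 13.9% of all genes were higher and 5.65% lower. Those higher included the secreted protein gene Tafa1 (2.49, SE 0.215), the potassium channel gene Kcna2 (0.91, SE 0.147), the neurotrophin-3 receptor gene Ntrk3 (1.26, SE 0.256) and Vsnl1 (1.39, SE 0.314). After quantile normalization 2 were higher and 1 lower, where 6.65% and 4.97% of all genes were. With saline paw replicate 1 left out, 11 were higher and 1 lower, where 22% and 17.8% of all genes were. Of 12 small neuron markers 5 were higher and 5 lower. Tac1, which encodes substance P (2.46, SE 0.190), and Kit (2.61, SE 0.212) were higher, and Mrgprd (−1.93, SE 0.150) and the natriuretic peptide gene Nppb (−1.11, SE 0.0924) were lower, and after quantile normalization 5 were higher and 7 lower. The counts were 5 and 5 without saline paw replicate 1. All neurons were above 26.9 µm, and the skin neurons were CGRP-positive and the muscle neurons CGRP-negative. Differences of the small neuron markers cannot be told apart from that selection. The part of these markers in the members' differences was not tested.

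Vimentin is also made by glia, fibroblasts, vessel cells and macrophages, and the markers of these cells that passed were all lower in skin neurons. Of the markers of Schwann cells 5 of 8 were lower in skin neurons, of endothelial and mural cells 5 of 10, of fibroblasts 2 of 9 and of macrophages 1 of 11, with 0 higher in these lists, where 5.65% of all genes were lower. Of 9 satellite glia markers 0 passed (median 0.24). For satellite glia the log2 of the summed signal was 10.53 to 11.63 on paw arrays and 10.01 to 11.46 on muscle arrays, and for Schwann cells 8.75 to 10.01 and 8.68 to 10.49. In the same order it was 6.83 to 7.28 and 6.98 to 7.44 for fibroblasts, 6.23 to 6.61 and 6.52 to 7.43 for vessel cells, and 5.61 to 5.95 and 5.78 to 5.99 for macrophages. Of the macrophage markers 5 to 8 of 11 lay under the dim limit in each group, Aif1, Adgre1 and Lyz2 in all of them. Of the vessel markers Cdh5, Tek and Emcn did so in both paw groups. The fibroblast markers Lum, Fn1 and Mgp also lay under it in both paw groups, and Lum in every muscle group as well. The satellite glia marker Cdh19 lay under it in saline paw. Without saline paw replicate 1, 3 of 9 satellite glia markers were higher and 6 Schwann cell, 8 vessel, 4 fibroblast and 3 macrophage markers were lower, where 22% of all genes were higher and 17.8% lower. After quantile normalization, where 4.97% of all genes were lower, 2 of 9 satellite glia markers were lower (median −0.26), with 6 Schwann cell, 2 vessel, 1 fibroblast and 0 macrophage markers, and 0 were higher in these lists. The part of these cells in the level of Vim was not tested.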

How the data were processed

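RNA of 15 samples in 5 groups of 3 was measured on Affymetrix whole-transcript arrays, from 50 ng of total RNA each. The authors deposited 1 normalized log expression value per probe set and array. Per the submitters' processing notes RMA and Partek were used, without a version. The base of the logarithm is not given in the sources used here, and the deposited values were read as log2 by their range. Depth has no meaning here, and the number of arrays limits the precision. Of 35556 probe sets, 21789 had 1 gene symbol in the probe table and 1621 several. The other 12146 have no name there and were not analysed here. For 999 genes with several probe sets the one with the highest mean was used, which left 19938 genes. Gene identifiers of 21698 probe sets matched the reference table, and 0 symbols were updated.

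Differences were tested with limma 3.58.1 in R 4.3.3, with 1 model of 5 group means over all 15 arrays (residual degrees of freedom 10), empirical Bayes moderation and two-sided p-values adjusted over all genes by Benjamini-Hochberg. A call is an adjusted p under 0.05. The labels call the replicates biological, and the p-values measure the spread between them, which is pooled over the groups. On simulated data with the spread of these arrays, the test recovered 62% of differences of 1 and 95% of differences of 2 (log2) for saline paw against saline muscle. For mean paw against mean muscle it recovered 91% and 100%. The shares were 68% and 97% for CFA paw against saline paw, 63% and 98% for CFA muscle and 61% and 97% for acid muscle, each against saline muscle. For the difference of the CFA effects they were 35% and 86%. These shares are over 19938 genes and were not computed for the members, whose spread within groups exceeded the gene median of 0.23 (Nefm 0.67, Ina 0.28).

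The alternatives were median centring, quantile normalization, cyclic loess, equal median and SD, the array SD as a covariate, ranks within arrays, weights for the arrays, a prior with an intensity trend and robust fit, removal of 5561 dim genes, the mean of a gene's probe sets, a fit of only the arrays compared, a replicate block, and leaving out each array. All 6 members were named. There were 11 lists (142 genes, 130 measured). From those of filament partners, other intermediate filament genes and neuron type markers, up to 4 called genes with the smallest p were named with values. Some further called genes were named without values. From the lists of glia, fibroblast, vessel and macrophage markers, genes were named only for lying under the dim limit. The 3 genes with the highest r were named for each member. Members and lists were chosen with earlier results of these data known. The list counts under quantile normalization and without saline paw replicate 1 were added after seeing the data.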

Additional observations from a re-analysis of the deposited data

How the results depend on the processing

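The direction of the Nefh and Ina differences between paw and muscle neurons held in all 3 such comparisons under every alternative tried, while 10 of the 18 differences of the 6 members changed sign in at least 1. The second Ina probe set taken alone was not among these alternatives, and its CFA paw minus CFA muscle difference was 0.16. The differences that turned and still passed were Prph and Vim after quantile normalization and Vim under cyclic loess, all for mean paw against mean muscle. Of the 30 differences between treatments 27 changed sign under at least 1 alternative, and 0 passed under any. The cause of these shifts was not tested. The fit of only the arrays compared has no separate value for mean paw against mean muscle, which uses all of them. The single differences of CFA muscle against acid muscle and of the CFA effects are not printed.

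For saline paw against saline muscle, the count of members passing was 2 as reported. It was 1 under median centring (Nefh), the intensity trend (Nefh), quantile normalization, cyclic loess and equal SD (Ina in each), 0 for ranks and for only the arrays compared, and 6 with array weights, where 37% of all genes passed (2.04% as reported). By ranks 0.391% of all genes passed, and 0% with only the arrays compared. Leaving out 1 array gave 0 to 3 members, at 19.2% of all genes without saline paw replicate 1 and 0.256% without replicate 3 of that group. Values of opposite sign were −0.16 (Nefm), −0.41 (Prph) and −0.66 (Vim) after quantile normalization, −0.071, −0.32 and −0.56 under cyclic loess, and −0.035, −0.22 and −0.36 percentile points for ranks. With equal SD Prph was at −0.20 and Vim at −0.43, and with the SD as a covariate Nefm was at −0.27 and Vim at −0.36.

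For CFA paw against CFA muscle the count was 2, with 1 under quantile normalization, cyclic loess and equal SD (Ina in each) and with the SD as a covariate (Nefh), 0 for ranks, and 5 with array weights (20.3% of all genes, against 6.41% as reported) and for only the arrays compared (16.1%). By ranks 1% of all genes passed. Leaving out 1 array gave 1 to 3 members, at 13% of all genes without saline paw replicate 1 and 2.64% without CFA muscle replicate 1. Opposite signs were −0.15 (Nefm), −0.42 (Prph) and −0.57 (Vim) after quantile normalization, −0.12, −0.43 and −0.53 under cyclic loess with Nefl at −0.16, and −0.062, −0.23 and −0.26 for ranks. With equal SD Prph was at −0.089 and Vim at −0.20, and with the SD as a covariate Nefm was at −0.18 and Vim at −0.14.

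For mean paw against mean muscle the count was 3, with 1 for ranks (Ina), 6 with array weights (52.3% of all genes, against 19.5% as reported) and 5 with dim genes removed (26.3%). By ranks 7.09% of all genes passed. Leaving out 1 array gave 3 to 5 members, the 5 without saline paw replicate 1, where 39.8% of all genes passed. Over all genes, the deposited values gave 2770 higher and 1127 lower, and quantile normalization gave 1325 and 991. Opposite signs were −0.25 (Nefm), −0.37 (Prph) and −0.52 (Vim) after quantile normalization, −0.26, −0.35 and −0.49 under cyclic loess, and −0.086, −0.19 and −0.26 for ranks. With equal SD Prph was at −0.086 and Vim at −0.22, and with the SD as a covariate Nefm was at −0.38 and Vim at −0.18.

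For CFA paw against saline paw the opposite signs were −0.15 (Nefm) and −0.013 (Prph) after quantile normalization, −0.20, −0.40 (Nefl) and −0.066 under cyclic loess, −0.20, −0.14 (Nefl) and −0.092 with array weights and −0.084 (Nefm) and −0.010 (Prph) for ranks. Nefl was at 0 under quantile normalization and ranks, since it had 3 brighter genes on every paw array. Nefm and Nefl were at −0.010 and −0.17 with equal SD and at −0.11 each with the SD as a covariate. Leaving out 1 array gave −0.30 to 0.061 for Nefh, −0.33 to 0.35 for Nefm, −0.23 to 0.23 for Nefl and −0.14 to 0.40 for Prph.

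For CFA muscle against saline muscle they were 0.028 (Nefh) and 0.041 (Prph) under cyclic loess, 0.052 (Nefh) and −0.0071 (Vim) with array weights, −0.024 (Nefl) and 0.0022 (Prph) after quantile normalization, −0.0033 (Nefl) for ranks and −0.15 (Ina) with the mean of its probe sets. Leaving out 1 array gave −0.20 to 0.22 for Nefh, −0.37 to 0.10 for Nefm, −0.14 to 0.35 for Nefl, −0.12 to 0.25 for Ina, −0.10 to 0.063 for Prph and −0.055 to 0.19 for Vim.

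For acid muscle against saline muscle they were −0.21 (Nefh) and −0.11 (Nefl) after quantile normalization and −0.035 and −0.0067 for ranks. Ina was at −0.010 under median centring, −0.024 with array weights and −0.16 with the mean of its probe sets, and Vim was at 0.064 with array weights. Leaving out 1 array gave −0.065 to 0.33 for Nefh, −0.24 to 0.78 for Nefm, −0.10 to 0.66 for Nefl, −0.16 to 0.21 for Ina, −0.26 to 0.020 for Prph and −0.46 to 0.22 for Vim.

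The labels do not say whether the replicate numbers mark a shared animal or day. Deviations of same-numbered arrays from their group means correlated from −0.53 to 0.34 over 30 pairs, above 0.1 in 10. For arrays of different numbers they correlated from −0.49 to 0.57 over 60 pairs, above 0.1 in 25. Of the 15 arrays 3 were most like an array of the same number. With 3 arrays per group, these values cannot show whether samples were paired. With the replicate number as a block, 1 member passed for saline paw against saline muscle (Nefh, with Nefl at an adjusted p of 0.0507 in limma), and the counts of the other comparisons were those reported. The lowest array weight was 0.148, for saline paw replicate 1, and the highest 7.18, for replicate 3 of that group. Signals near the dim limit of 2.44 bound what can be read for dim genes, and 0 members lay under it.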
